A study of Mus musculus with 138 samples.

Results

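The frontal suture is the joint between the paired frontal bones at the midline of the forehead, and the growing edge of each bone beside it is its osteogenic front (OF). The libraries described here are those labelled as the frontal OF of the frontal suture, 5 from mouse embryos at E16.5 and 5 at E18.5 (E gives the embryonic day), which are 10 of the 138 samples of the series. For 4 sutures of the skull vault (coronal, sagittal, lambdoid, frontal) the study sequenced bulk RNA of the suture mesenchyme (SM) and of each OF, and for the coronal suture single cells as well. All 10 libraries came from C57BL/6J embryos, with no mutant allele and no treatment at either age, and the groups differ by age and by litter. Each region was cut out by laser-capture microdissection and its RNA was amplified before sequencing, and a library therefore holds all cell types in the cut area. In such bulk samples, fewer cells of a type and less RNA per cell cannot be told apart. The E16.5 embryos came from 2 litters (replicates 1 and 2, and replicates 3, 4 and 5). The E18.5 embryos came from 3 litters (replicates 1, 2 and 4, replicate 3 alone and replicate 5 alone). No litter gave embryos of both ages, so age and litter cannot be told apart.

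The bones of the skull vault form directly from mesenchyme, without a cartilage template. At the OF, dividing progenitors leave the cell cycle, become osteoblasts and lay down collagen that then mineralizes, while the mesenchyme between the bones stays unmineralized and keeps the suture open. The transcription factors Runx2 and Sp7 drive the osteoblast program, Alpl, Ibsp and Dmp1 belong to mineralizing matrix, and Wnt, BMP, FGF and hedgehog signals act on the balance between division and differentiation. The comparison of E18.5 with E16.5 asks which transcripts of this growing edge changed during the last days before birth.

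The labelled region carried osteoblast markers. Levels are given throughout in CPM, the counts of a gene scaled to the library's size by the TMM method. Ibsp, a sialoprotein of mineralizing bone, lay at 1050 to 2720 CPM in the E16.5 OF and at 1010 to 3710 CPM in the E18.5 OF, against 0 to 34.3 CPM and 0 to 70.7 CPM in the frontal SM of the same embryos. Sp7 lay at 231 to 355 CPM and 122 to 309 CPM in the OF, against 10.5 to 29.4 CPM and 3.21 to 32.3 CPM in the SM. Alpl, the alkaline phosphatase of osteoblasts, lay at 414 to 526 CPM and 182 to 421 CPM in the OF, against 32.9 to 47.7 CPM and 14.1 to 46.1 CPM in the SM. For all 3 genes, every OF library lay above every SM library at both ages.

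The ages also differed in the libraries themselves. The total counts of the E16.5 libraries (13905995 to 16227909) all exceeded those of the E18.5 libraries (7988898 to 11099432; exact permutation test, two-sided p = 0.00794, the smallest value that 5 against 5 libraries allow). E16.5 libraries detected 25118 to 28079 genes and E18.5 libraries 20627 to 25244 (exact permutation test, p = 0.0159). The mitochondrial genome took 19.6% to 26.2% of the counts at E16.5. At E18.5 it took 26.4%, 35.6%, 22.7%, 22.6% and 52.3% in replicates 1 to 5. E18.5 replicate 5 stood apart, with the highest mitochondrial share, the fewest genes and 65.0% of its counts in its 100 most abundant genes, against 40.0% to 49.8% in the other 9 libraries. The frontal SM library of that embryo had 21.5% mitochondrial counts. E18.5 replicate 2 had the next highest mitochondrial share, so results are given below with and without replicates 2 and 5. Their part in the result was not tested.

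**Figure D1:**
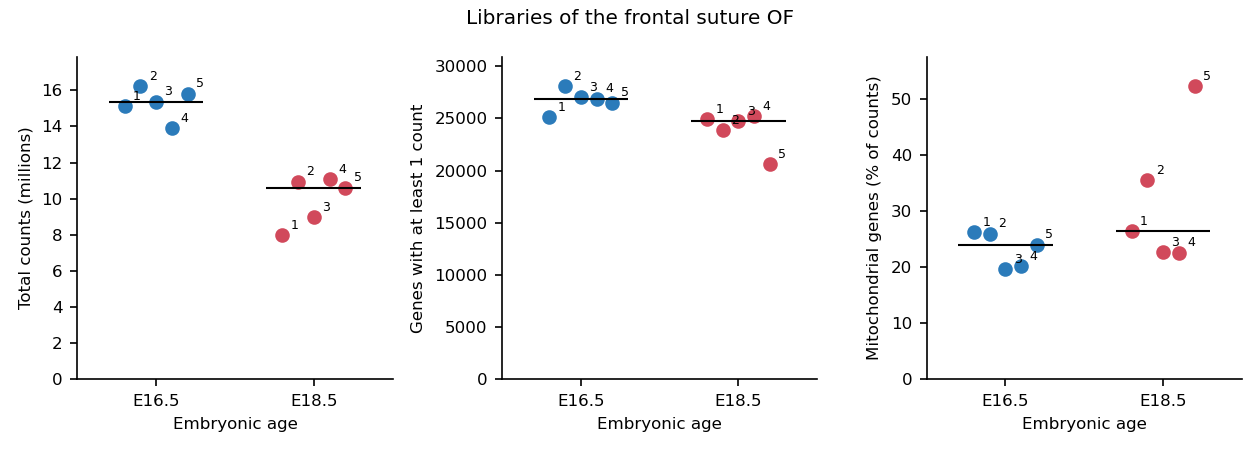
Total counts, genes with at least 1 count, and the percentage of counts from mitochondrial genes in each of the 10 frontal OF libraries, numbered by replicate, with lines at the medians. E18.5 replicate 5 has the highest mitochondrial percentage (52.3%) and the fewest genes (20627), and all E18.5 libraries lie below all E16.5 libraries in total counts.

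Of 19768 genes tested, 433 were higher at E18.5 (2.19%) and 425 lower (2.15%), by the quasi-likelihood test of edgeR at a Benjamini-Hochberg adjusted p below 0.05 over all genes. The median log2 fold change of all genes was -0.005. The 5 libraries of one age did not overlap with those of the other for 223 of the genes that rose and 270 of those that fell, where 2.90% of all genes tested had every E18.5 library above and 3.86% every E18.5 library below. Without E18.5 replicate 5, 111 genes rose (0.562%) and 176 fell (0.890%), and 107 and 151 of these were among the calls from all libraries. In a fit of the frontal OF libraries alone the same step went the other way, from 134 raised and 100 lowered genes to 296 and 337. Without replicates 2 and 5, 47 rose (0.238%) and 19 fell (0.0961%), 44 and 15 of them among those calls. The direction was kept for 419 of the 433 raised and 425 of the 425 lowered genes when both libraries were left out. These genes were chosen with libraries that stayed in that fit, so a kept direction is no independent support. With all libraries, without replicate 5 and without replicates 2 and 5 alike, 43 genes rose and 15 fell. Littermates were also summed into 1 library per litter (2 against 3), and 24 of these 43 and 5 of these 15 passed then, with Tnn, Fndc1, Thbs2, Abi3bp, Podn, Socs2, Fabp4, Ube2c, Plk1 and Uhrf1 among them and Bnip3, Vegfa, Sfrp2, Mcpt4 and Kif11 not.

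Genes of the cell cycle were lower at E18.5. This list and those below were chosen with earlier results of these data known, so their shares of calls are descriptions and not tests. Of 40 members tested, 23 fell and 0 rose, against 2.15% of all genes that fell, and 40 of 40 had a log2 fold change below 0, with a median of -0.70 against -0.005 for all genes. The members that fell include genes of DNA replication (Mcm2, Mcm5, Cdc6, Rrm2) and of mitosis (Plk1, Cdc20, Aurka, Ccnb1). Without replicates 2 and 5 the median was -0.68, 40 of 40 were again below 0, and 4 members passed the test, namely Ube2c, Plk1, Uhrf1 and Kif11. With counts summed per litter the median was -0.61 and 4 members fell.

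Ube2c (ENSMUSG00000001403.13, chromosome 2, 164769898 to 164778822 of mm10), a ubiquitin-conjugating enzyme that works with the anaphase-promoting complex at the end of mitosis, had 83.2, 65.1, 78.5, 86.0 and 104 CPM at E16.5 and 34.7, 27.1, 27.4, 40.7 and 21.6 CPM at E18.5. The ages did not overlap, and replicate 5 was the lowest library. The fall was 1.46 on the log2 scale, written as log2 fold change -1.46 ± 0.23 (SE), with adjusted p = 1.29e-05 (0.00645 without replicates 2 and 5). Plk1, a kinase that drives entry into mitosis, had 32.9, 22.9, 38.4, 29.5 and 31.5 CPM at E16.5 and 12.1, 6.44, 14.1, 15.4 and 5.32 CPM at E18.5, again without overlap (log2 fold change -1.53 ± 0.26, adjusted p = 8.58e-05, and 0.047 without replicates 2 and 5). Uhrf1, which maintains DNA methylation through replication, ranged from 38.5 to 54.6 CPM at E16.5 and from 13.7 to 31.2 CPM at E18.5 (log2 fold change -1.01 ± 0.17, adjusted p = 6.44e-05). Kif11, a motor of the mitotic spindle, had 115 to 160 CPM at E16.5 and 58.8 to 139 CPM at E18.5. Its ages overlapped only through replicate 5, which held the highest E18.5 value (log2 fold change -0.57 ± 0.18, adjusted p = 0.046).

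Mki67, a marker of cycling cells, did not pass the test. It had 756, 728, 944, 742 and 991 CPM at E16.5 and 457, 720, 544, 607 and 1370 CPM at E18.5 (log2 fold change -0.17 ± 0.21, adjusted p = 0.771). Replicate 5 was the highest of all 10 libraries, and the other 4 E18.5 libraries lay below every E16.5 library, with a log2 fold change of -0.52 (adjusted p = 0.264) without replicate 5. Top2a, which untangles replicated DNA, had 226 to 359 CPM at E16.5 and 154 to 282 CPM at E18.5 (log2 fold change -0.46 ± 0.17, adjusted p = 0.0943). Ccnd1, a cyclin of the G1 phase that lies outside the list and was chosen after its values were seen, had 134, 112, 137, 130 and 247 CPM at E16.5 and 70.5, 32.4, 73.1, 82.0 and 48.9 CPM at E18.5. All E18.5 libraries lay below all E16.5 libraries (log2 fold change -1.31 ± 0.22, adjusted p = 5.13e-05, and 0.0338 without replicates 2 and 5).

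The promoters of 3 of these genes and of Mvk, an enzyme of cholesterol synthesis described further on, are shown because members that fell together can be compared at their start sites. The sequences are the 250 bases before and 50 bases after the start site of RefSeq on GRCm38.p6, the assembly behind mm10, and all 4 lie on the plus strand. Ube2c is taken from chr2:164769679-164769978, Plk1 from chr7:122159185-122159484, Kif11 from chr19:37376132-37376431 and Mvk from chr5:114444019-114444318. Capitals mark the CCAAT box (CCAAT, or ATTGG on the other strand) and the cell cycle homology region (TTTGAA or TTCGAA, or TTCAAA on the other strand).
Ube2c: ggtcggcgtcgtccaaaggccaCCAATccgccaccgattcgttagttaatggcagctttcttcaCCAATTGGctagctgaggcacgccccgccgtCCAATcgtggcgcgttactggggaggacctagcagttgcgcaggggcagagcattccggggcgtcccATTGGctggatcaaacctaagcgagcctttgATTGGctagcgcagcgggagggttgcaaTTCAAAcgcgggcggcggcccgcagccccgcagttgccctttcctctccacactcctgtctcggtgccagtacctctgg
Plk1: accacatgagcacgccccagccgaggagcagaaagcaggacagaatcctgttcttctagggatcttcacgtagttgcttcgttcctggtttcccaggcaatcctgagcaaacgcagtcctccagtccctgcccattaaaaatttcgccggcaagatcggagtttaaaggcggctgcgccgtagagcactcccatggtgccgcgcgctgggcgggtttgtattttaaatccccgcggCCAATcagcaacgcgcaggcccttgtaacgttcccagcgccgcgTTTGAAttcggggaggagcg
Kif11: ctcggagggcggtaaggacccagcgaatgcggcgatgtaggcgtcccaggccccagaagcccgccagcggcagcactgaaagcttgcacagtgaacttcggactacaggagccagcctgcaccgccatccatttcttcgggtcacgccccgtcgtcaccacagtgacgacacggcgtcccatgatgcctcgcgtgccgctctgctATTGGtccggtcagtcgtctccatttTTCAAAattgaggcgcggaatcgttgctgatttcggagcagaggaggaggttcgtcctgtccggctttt
Mvk: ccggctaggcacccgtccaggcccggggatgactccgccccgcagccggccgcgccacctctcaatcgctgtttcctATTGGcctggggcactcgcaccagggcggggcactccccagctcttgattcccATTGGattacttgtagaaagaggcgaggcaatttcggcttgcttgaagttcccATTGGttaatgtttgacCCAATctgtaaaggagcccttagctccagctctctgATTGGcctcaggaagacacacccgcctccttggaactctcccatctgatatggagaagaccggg
The CCAAT box, which binds the factor NF-Y, stood in the promoters of 16 of the 19 lowered cell cycle genes that had a RefSeq promoter (84.2%), against 38.4% of the 11921 promoters of genes tested. The cell cycle homology region, a short element of genes expressed in G2 and mitosis, stood in 9 of the 19 (47.4%), against 14.1% of all promoters. The 3 cell cycle promoters printed hold both elements, which at most 9 of the 19 can. Of those not printed, Uhrf1 had 3 matches of the CCAAT box and 0 of the homology region. Ccne1, Cdc6 and Tyms had 0 of both. Of the members tested, whether they fell or not, 78.8% of 33 promoters had the CCAAT box and 51.5% the homology region. Both strands were searched, adjoining and overlapping matches were each counted, and a match describes the letters and not a bound site.

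The replication-dependent histone genes were also low at E18.5. This group was chosen after its members appeared among the largest falls, and consists of the 45 tested genes with symbols of the clusters Hist1 to Hist4. Of these, 17 fell, against 2.15% of all genes, 0 rose, and 43 of 45 had a log2 fold change below 0 (median -1.64). Their summed level was 480, 399, 565, 521 and 577 CPM at E16.5 and 192, 65.6, 277, 301 and 107 CPM at E18.5, and the lowest sums were those of replicates 2 and 5. Without these libraries the median was -1.09 and 0 of 45 passed edgeR's test, while 16 were lower and 0 higher at an unadjusted p under 0.05. Hist1h2bl had 37.1 to 61.4 CPM at E16.5 and 3.73 to 24.3 CPM at E18.5 (log2 fold change -1.80 ± 0.40, adjusted p = 0.00288, and 0.313 without both libraries). Histone genes are near-identical copies of each other, so the division of reads among them is uncertain.

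**Figure D2:**
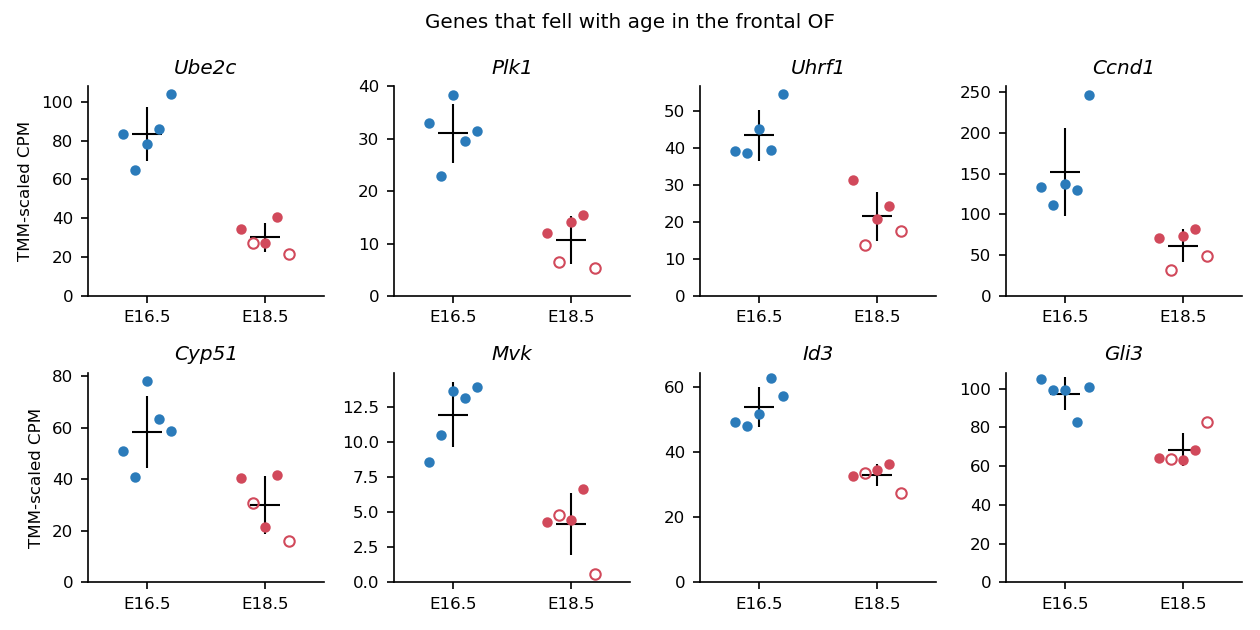
CPM of 8 genes that fell, in each frontal OF library, with open circles for E18.5 replicates 2 and 5 and bars for the mean ± SD of 5 libraries. The ages do not overlap for Ube2c, Plk1, Uhrf1 and Ccnd1, and for Mvk the lowest library (0.625 CPM) is E18.5 replicate 5.

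Genes of cholesterol synthesis and uptake were lower at E18.5. Of 25 members tested, 10 fell, against 2.15% of all genes, 0 rose, and 24 of 25 were below 0, with a median log2 fold change of -0.80. With counts summed per litter 1 of the 25 fell, at a median of -0.87. Cyp51, which removes a methyl group from lanosterol, had 51, 41.1, 78.4, 63.5 and 58.7 CPM at E16.5 and 40.5, 30.8, 21.7, 41.6 and 15.9 CPM at E18.5. The ages touched at replicate 2 of E16.5 and replicate 4 of E18.5 (log2 fold change -0.95 ± 0.23, adjusted p = 0.00604, and 0.314 without replicates 2 and 5). Mvk, mevalonate kinase, had 8.58 to 13.9 CPM at E16.5 and 0.625 to 6.62 CPM at E18.5 (log2 fold change -1.50 ± 0.39, adjusted p = 0.0112), with the lowest level in replicate 5. The members that fell also include Sqle, squalene epoxidase (log2 fold change -0.80 ± 0.23, adjusted p = 0.0282), and Srebf2, the transcription factor of the pathway (-0.79 ± 0.22, adjusted p = 0.018). Without replicates 2 and 5 none of the 25 passed edgeR's test, while 24 of 25 were below 0, the median was -0.70 and 14 were lower at an unadjusted p under 0.05. The CCAAT box stood in all 5 promoters found for the 10 genes that fell, as in the Mvk sequence above, and in 15 of 17 promoters of members tested whether they fell or not (88.2%), against 38.4% of all promoters. The sterol element TCACNCCAC stood in 0 of the 5 and 1 of the 17, against 1.11% of all promoters.

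Nuclear genes of oxidative phosphorylation leaned the same way. Of 28 members tested, 5 fell (Atp5g1, Uqcrq, Cox6a1, Ndufa4 and Cox8a), against 2.15% of all genes, 0 rose, and 26 were below 0, with a median log2 fold change of -0.46. Atp5g1, a subunit of ATP synthase, had 58.0 to 91.3 CPM at E16.5 and 43.6, 21.7, 39.1, 64.0 and 18.4 CPM at E18.5 (log2 fold change -1.0 ± 0.21, adjusted p = 0.00113, and 0.346 without replicates 2 and 5). Without both libraries the median was -0.29 and none passed edgeR's test, with 9 lower at an unadjusted p under 0.05. The mitochondrial share of counts was highest in the 2 libraries where Atp5g1 was lowest, E18.5 replicates 2 and 5. Its part in these falls was not tested.

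Genes of fibrous and periosteal matrix included rises that held without the libraries that stood apart. Of 32 members tested, 6 rose, against 2.19% of all genes, and 2 fell, with a median log2 fold change of 0.06. Those that rose were Tnn, Fndc1, Thbs2, Postn, Col11a1 and Col12a1, and those that fell were Fbn1 and Mfap2, both of elastic microfibrils. Tnn, Fndc1, Thbs2 and Col12a1 also passed without replicates 2 and 5. Col12a1 did not pass without replicate 5 alone, and its ages overlapped (2870 to 4070 CPM at E16.5 and 2830 to 5260 CPM at E18.5).

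Tnn (ENSMUSG00000026725.17, chromosome 1, 160085029 to 160153580 of mm10) encodes tenascin-W, a glycoprotein of periosteum and of matrix around osteoblasts. It had 183, 102, 57.4, 150 and 48.2 CPM at E16.5 and 322, 326, 255, 352 and 301 CPM at E18.5. The ages did not overlap, and the spread was wider at E16.5 (log2 fold change 1.52 ± 0.22, adjusted p = 1.58e-06, and 4.63e-05 without replicates 2 and 5). Fndc1, a secreted protein with fibronectin domains, had 153, 150, 105, 144 and 124 CPM at E16.5 and 350, 343, 376, 251 and 241 CPM at E18.5 (log2 fold change 1.21 ± 0.23, adjusted p = 0.000318, and 0.00333 without both libraries). Thbs2, a thrombospondin that shapes collagen fibrils, had 541 to 820 CPM at E16.5 and 952 to 1410 CPM at E18.5, and its lowest E18.5 library was replicate 5 (log2 fold change 0.79 ± 0.14, adjusted p = 0.000126). Postn, periostin, had 833, 697, 671, 770 and 739 CPM at E16.5 and 1160, 1940, 1180, 1370 and 1720 CPM at E18.5. It too rose without overlap, with replicates 2 and 5 highest (log2 fold change 0.99 ± 0.19, adjusted p = 0.000445, and 0.0841 without both). Fbn1, fibrillin-1, had 417 to 684 CPM at E16.5 and 129 to 358 CPM at E18.5 (log2 fold change -1.08 ± 0.23, adjusted p = 0.00227, and 0.0885 without both).

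Small leucine-rich proteoglycans, which bind collagen fibrils, rose in part. Of 16 members tested, 5 rose (Podn, Bgn, Aspn, Ecm2 and Ogn) against 2.19% of all genes, and 0 fell, with a median log2 fold change of 0.18. Podn was the member that also passed without replicates 2 and 5. Podn had 41.8, 32.5, 26.4, 27.6 and 39.3 CPM at E16.5 and 80.1, 114, 90.0, 59.2 and 296 CPM at E18.5. Replicate 5 was far above the rest, yet the other 4 E18.5 libraries also lay above E16.5 (log2 fold change 1.93 ± 0.28, adjusted p = 1.79e-06, and 1.21 with adjusted p = 0.0214 without replicates 2 and 5). Bgn, biglycan, had 1190 to 2180 CPM at E16.5 and 2140, 3710, 2150, 1650 and 6030 CPM at E18.5. The ages overlapped, and the log2 fold change of 1.03 ± 0.18 (adjusted p = 8.58e-05) went to 0.39 (adjusted p = 0.517) without both libraries. Abi3bp, a matrix-bound protein of connective tissue and 1 of the largest rises, had 24.2, 31.9, 24.4, 23.6 and 31.6 CPM at E16.5 and 85.6, 143, 113, 41.8 and 151 CPM at E18.5, without overlap (log2 fold change 1.97 ± 0.29, adjusted p = 4.76e-06, and 0.00367 without both).

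**Figure D3:**
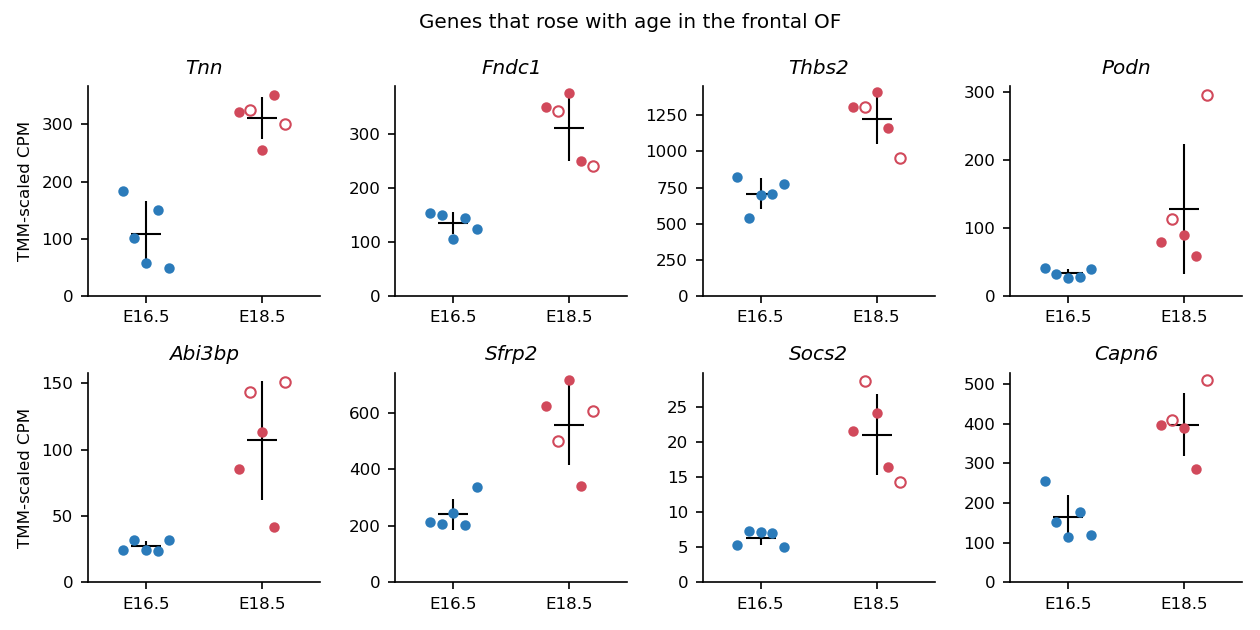
CPM of 8 genes that rose, in each frontal OF library, with open circles for E18.5 replicates 2 and 5 and bars for the mean ± SD of 5 libraries. Every E18.5 library lies above every E16.5 library for these 8 genes, and Podn in replicate 5 (296 CPM) lies above the other E18.5 libraries (59.2 to 114 CPM).

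Several calls were lost without replicate 5. Erg, an ETS transcription factor, had 70.1 to 120 CPM at E16.5 and 88.8, 150, 109, 76.6 and 646 CPM at E18.5, and its log2 fold change of 1.32 ± 0.31 (adjusted p = 0.00422) went to 0.30 (adjusted p = 0.772) without that library. P4ha3, a prolyl hydroxylase of collagen, had 912 CPM in replicate 5 and 191 to 306 CPM in the other E18.5 libraries, against 154 to 239 CPM at E16.5 (log2 fold change 1.06 ± 0.23, adjusted p = 0.00264, and 0.361 without replicate 5). Plagl1, an imprinted zinc finger factor, had 1190 CPM in that library and 212 to 639 CPM in the other 4, against 222 to 283 CPM at E16.5 (log2 fold change 1.06 ± 0.24, adjusted p = 0.0038, and 0.301 without it).

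Osteoblast genes gave no call by edgeR. Of 16 osteoblast transcription factors, of 24 genes of bone matrix and mineral, and of 10 osteocyte genes, none passed edgeR's test, with median log2 fold changes of -0.15, 0.30 and 0.21, and 12, 9 and 3 members below 0. At an unadjusted p under 0.05 there were 2, 9 and 1 of these genes, where 3424 of all 19768 genes had such a p. DESeq2 called Bhlhe41 and Runx2 higher (adjusted p = 0.0416 and 0.0422), and limma-voom called Spp1 and Mmp13 higher and Alpl and Fkbp10 lower (adjusted p = 0.043, 0.00965, 0.0373 and 0.0497). Runx2 had 725, 586, 608, 626 and 773 CPM at E16.5 and 728, 685, 717, 828 and 1200 CPM at E18.5 (log2 fold change 0.33 ± 0.13, adjusted p = 0.156). Sp7 had 355, 231, 261, 311 and 294 CPM at E16.5 and 234, 122, 200, 309 and 129 CPM at E18.5 (-0.55 ± 0.28, adjusted p = 0.303). These ranges overlap, and replicate 5 held the highest Runx2 value.

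Genes of the mineralizing matrix were scattered within each age. Spp1, osteopontin, had 838, 609, 298, 727 and 113 CPM at E16.5 and 589, 380, 537, 2260 and 3610 CPM at E18.5 (log2 fold change 1.51 ± 0.61, adjusted p = 0.144). Dmp1, of late osteoblasts and osteocytes, had 66.3, 63.7, 36.2, 44.2 and 7.40 CPM at E16.5 and 43.4, 26.8, 49.5, 236 and 87.1 CPM at E18.5 (1.02 ± 0.63, adjusted p = 0.421). For both genes E16.5 replicate 5 was the lowest library and E18.5 replicates 4 and 5 were the highest. Ibsp, with 2470, 2270, 1840, 2720 and 1050 CPM at E16.5 and 1730, 1010, 1170, 2710 and 3710 CPM at E18.5, differed by -0.004 ± 0.68 on the log2 scale (adjusted p = 0.999). Bglap, osteocalcin, lay at 1.09 to 7.59 CPM at E16.5 and 2.33 to 21.6 CPM at E18.5 (0.81 ± 1.00, adjusted p = 0.768), and Mmp13, a collagenase of bone, at 3.88 to 22.8 CPM and 21.4 to 43.1 CPM (1.32 ± 0.61, adjusted p = 0.234). Col1a1, the main collagen of bone, had 15300 to 23500 CPM at E16.5 and 20000 to 35800 CPM at E18.5 (0.42 ± 0.18, adjusted p = 0.19). The standard errors of Spp1, Dmp1 and Ibsp (0.61 to 0.68) were far larger than that of Thbs2 (0.14). They rest on each gene's spread over all 20 groups of the fit and do not measure the scatter of these libraries alone.

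**Figure D4:**
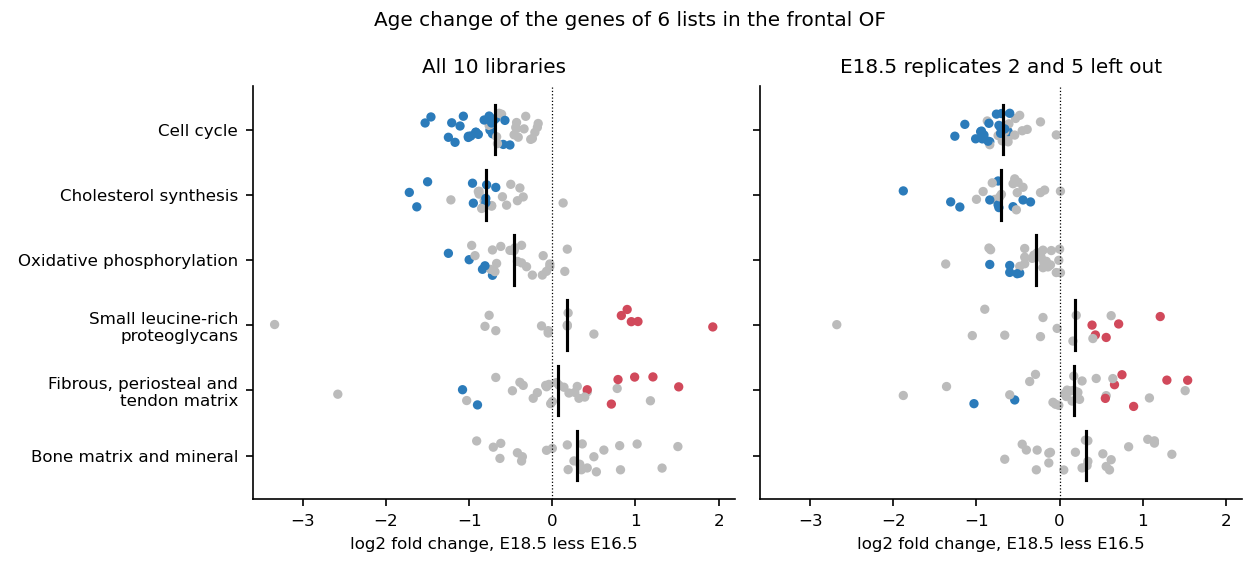
Log2 fold change (E18.5 against E16.5) of every tested member of 6 gene lists, with all libraries and with E18.5 replicates 2 and 5 left out. Red and blue points mark members that rose and fell with all libraries, grey points the others, and black lines the medians. All 40 cell cycle genes lie below 0 in both panels, and the bone matrix list has no coloured point.

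The Wnt genes that changed included secreted antagonists in both directions. Of 35 members tested, 2 rose (Sfrp2 and Dkk3) and 3 fell (Sfrp1, Apcdd1 and Lef1), against 2.19% and 2.15% of all genes, with a median log2 fold change of -0.19. Sfrp2, a secreted frizzled-related protein, had 212, 207, 246, 203 and 336 CPM at E16.5 and 623, 499, 716, 341 and 606 CPM at E18.5. The lowest E18.5 library was just above the highest E16.5 library (log2 fold change 1.21 ± 0.27, adjusted p = 0.00295, and 0.0338 without replicates 2 and 5). Sfrp1, its paralog, moved the other way, with 43.0 to 64.0 CPM at E16.5 and 27.7, 11.9, 15.4, 10.3 and 55.2 CPM at E18.5. Replicate 5 alone overlapped E16.5, and the log2 fold change of -1.09 ± 0.30 (adjusted p = 0.022) was -1.50 (adjusted p = 0.0233) without both libraries. Dkk3, of the dickkopf family, had 142 to 183 CPM at E16.5 and 233 to 406 CPM at E18.5 (log2 fold change 0.77 ± 0.15, adjusted p = 0.00063, and 0.0795 without both). Lef1, a transcription factor of the pathway, had 5.62 to 10.9 CPM and 2.43 to 7.74 CPM (-1.08 ± 0.32, adjusted p = 0.0364, and 0.739 without both).

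Among BMP and TGF-beta genes, 2 of 37 rose and 5 fell, against 2.19% and 2.15% of all genes, with a median log2 fold change of -0.06. Those that fell included the ligands Bmp5, Bmp6 and Bmp7 and the BMP target Id3, and the receptor Bmpr2 and the ligand subunit Inhba rose. Id3 had 49.3, 48.1, 51.7, 62.6 and 57.2 CPM at E16.5 and 32.7, 33.5, 34.6, 36.2 and 27.5 CPM at E18.5, a narrow range at each age without overlap (log2 fold change -0.71 ± 0.17, adjusted p = 0.00716). Bmp7 had 31.8 to 46.8 CPM at E16.5 and 9.32 to 23.1 CPM at E18.5 (-1.15 ± 0.32, adjusted p = 0.0227). Without replicates 2 and 5 none of the 37 passed edgeR's test (1 higher and 8 lower at an unadjusted p under 0.05), with Id3 at -0.62 and an adjusted p of 0.221. Inhba had 143 CPM in E18.5 replicate 5 against at most 30.9 CPM in each of the other 4 E18.5 libraries, and its log2 fold change of 1.09 ± 0.34 (adjusted p = 0.0474) went to 0.03 without that library.

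Of 14 hedgehog genes only Gli3 passed edgeR's test, and DESeq2 also called Smo, the signal transducer of the pathway, higher (adjusted p = 0.0366). Gli3, a transcription factor that mostly represses hedgehog targets, had 105, 99.3, 99.2, 82.6 and 101 CPM at E16.5 and 64.3, 63.6, 63.3, 68.5 and 83.0 CPM at E18.5. The values touch at replicate 4 of E16.5 and replicate 5 of E18.5 (log2 fold change -0.51 ± 0.12, adjusted p = 0.00752, and -0.55 with adjusted p = 0.064 without replicates 2 and 5). Hhip, the hedgehog-interacting protein that binds and limits the ligands, had 117, 80.0, 83.2, 106 and 98.7 CPM at E16.5 and 63.3, 82.7, 55.1, 62.4 and 64.7 CPM at E18.5. Only replicate 2 of E18.5 reached the E16.5 range (-0.56 ± 0.33, adjusted p = 0.403). Ihh, the ligand made by differentiating skeletal cells, was at or below 8.74 CPM in all 10 libraries (-0.38 ± 0.58, adjusted p = 0.821). By edgeR the hedgehog, FGF and craniosynostosis lists held at most 1 call in each direction, where 2.19% of all genes rose and 2.15% fell. DESeq2 called 2 FGF and 2 craniosynostosis genes higher, and limma-voom called 2 craniosynostosis genes lower. Of 20 FGF genes Spred1, an inhibitor of the Ras pathway, rose from 55.7 to 79.3 CPM to 72.0 to 123 CPM (0.48 ± 0.14, adjusted p = 0.0297, and 0.806 without both libraries). Of the 29 genes taken from the textbook list of craniosynostosis, which also holds Gli3, Rab23, a GTPase of the hedgehog pathway, rose from 26 to 32.1 CPM to 35.4 to 53.8 CPM without overlap (0.59 ± 0.16, adjusted p = 0.0195, and 0.422 without both).

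Some hypoxia-responsive genes rose, and Bnip3 and Vegfa also passed the test without replicates 2 and 5. Of 24 members of the glycolysis and hypoxia list, 3 rose (Bnip3, Vegfa and Pdk1), against 2.19% of all genes, and 0 fell by edgeR, with a median log2 fold change of 0.30, and 0.43 without replicates 2 and 5. DESeq2 also called P4ha1 higher and Gapdh lower (adjusted p = 0.0211 and 0.0396). Bnip3, a receptor for the removal of mitochondria, had 5.92, 7.41, 6.10, 7.47 and 3.90 CPM at E16.5 and 19.4, 23.9, 16.2, 25.6 and 10.8 CPM at E18.5. The ages did not overlap (log2 fold change 1.64 ± 0.38, adjusted p = 0.00381, and 0.0282 without both libraries). Vegfa, the main growth factor of blood vessels, had 38 to 48.4 CPM at E16.5 and 78.3, 77.9, 60.4, 70.7 and 55.5 CPM at E18.5, also without overlap (0.68 ± 0.16, adjusted p = 0.00416, and 0.0405 without both). Socs2, a cytokine and growth hormone feedback inhibitor (ENSMUSG00000020027.18, chromosome 10, 95385362 to 95417180), had 5.33, 7.35, 7.15, 7.09 and 5.10 CPM at E16.5 and 14.4 to 28.8 CPM at E18.5. The ages did not overlap (1.72 ± 0.23, adjusted p = 4.66e-07, and 7.45e-06 without both).

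Imprinted genes changed in both directions. Of 20 imprinted growth genes 3 rose (Peg3, Plagl1 and Zim1) and 2 fell, against 2.19% and 2.15% of all genes, with a median log2 fold change of 0.04. Peg3 had 1340 to 1660 CPM at E16.5 and 1920, 2340, 2000, 1570 and 2940 CPM at E18.5 (0.53 ± 0.10, adjusted p = 0.000588, and 0.267 without replicates 2 and 5). Peg10, a retrotransposon-derived imprinted gene, had 75.6 to 116 CPM at E16.5 and 45.0 to 68.1 CPM at E18.5 without overlap (-0.78 ± 0.18, adjusted p = 0.00422, and 0.0845 without both). Of 18 genes of the IGF axis 1 rose by edgeR, Igf1r, and 1 fell, Igf2bp1. DESeq2 called 6 of them higher and 2 lower, and limma-voom 1 higher and 2 lower. None passed edgeR's test without replicates 2 and 5 (5 higher and 2 lower at an unadjusted p under 0.05). Igf2bp1, a fetal RNA-binding protein that fades with age in many tissues, had 52.1, 51.1, 65.4, 54.3 and 62.6 CPM at E16.5 and 34.0, 19.9, 33.0, 40.5 and 16.4 CPM at E18.5 (-0.99 ± 0.18, adjusted p = 0.000318, and 0.173 without both). The growth factor gene Igf2 (112 to 189 CPM at E16.5 and 134 to 219 CPM at E18.5) and its neighbour H19 (3410 to 5190 CPM and 2640 to 5120 CPM) did not pass, with log2 fold changes of 0.22 ± 0.18 (adjusted p = 0.606) and -0.03 ± 0.16 (adjusted p = 0.964). Igf1r, the receptor of the axis, rose from 158 to 180 CPM to 187 to 268 CPM without overlap (0.38 ± 0.11, adjusted p = 0.025, and 0.65 without both).

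Markers of other cell types moved as well. The mast cell protease Mcpt4 had 0, 0.561, 0.277, 0.443 and 0.975 CPM at E16.5 and 12.4, 7.56, 19.2, 2.80 and 3.75 CPM at E18.5 (log2 fold change 4.31 ± 1.05, adjusted p = 0.0073). Mrgprb1, a receptor gene of the family found on mast cells, had 0 counts in every E16.5 library and 41, 78, 59, 4 and 13 counts at E18.5 (0.339 to 7.28 CPM, adjusted p = 0.000156). Reads of this gene may be shared with close relatives of the same family. Of 9 mast cell genes tested 2 rose and 0 fell, against 2.19% and 2.15% of all genes, and 2 rose without replicates 2 and 5 (0.238% of all genes), and the summed level of the list was 35.3 to 103 CPM at E16.5 and 62.0 to 328 CPM at E18.5. The list had 2 of 9 members below 0. Of the defining markers, Kit had 9.82 to 20.8 CPM at E16.5 and 2.03 to 22.8 CPM at E18.5 (-0.12 ± 0.41, adjusted p = 0.936), Cpa3 had 6.89 to 33.5 CPM and 21.3 to 144 CPM (2.39 ± 0.91, adjusted p = 0.118), and Cma1 2.83 to 13.7 CPM and 6.72 to 47.0 CPM (1.54 ± 0.75, adjusted p = 0.266). Fabp4, a fatty-acid carrier of adipocytes and capillaries, had 1.83 to 6.90 CPM at E16.5 and 13.7, 10.8, 21.5, 8.91 and 23.4 CPM at E18.5 (2.09 ± 0.38, adjusted p = 0.000215, and 0.00495 without both libraries). It was the 1 call among 6 adipocyte genes, of which 3 were below 0. Of 18 endothelial genes 15 were below 0 (median log2 fold change -0.63), with 1 fall, Cdh5, and 1 rise, Erg. Their summed level was 541 to 643 CPM at E16.5 and 395 to 576 CPM at E18.5 apart from replicate 5, which had 1009 CPM. Erg, which also stands in the list of suture mesenchyme genes, made up 646 CPM of that sum.

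Blood, dura, neural and muscle markers were lower at E18.5 in part, where 2.15% of all genes fell. The erythroid list summed to 894 to 1747 CPM at E16.5 and to 72.4 to 869 CPM at E18.5, and 2 of its 11 genes fell, Hbb-y and Hbb-bt. Dura mater and meninges genes summed to 532 to 701 CPM and 313 to 548 CPM, with 17 of 18 below 0, a median log2 fold change of -0.95 and 1 fall by edgeR, Nnat, while limma-voom called 8 lower and DESeq2 called 2. Of 13 neural genes 2 fell (Nes and Stmn2). The neural sums overlapped, with 92.9 to 300 CPM at E16.5, highest in replicate 2, and 83.4 to 128 CPM at E18.5. Of 10 skeletal muscle genes 3 fell (Myh3, Myh8 and Tnnt3). The muscle sums were 25.4, 75.0, 239, 134 and 28.6 CPM at E16.5 and 23.1 to 63.3 CPM at E18.5. Those of E16.5 replicates 1 and 5 thus lay within the E18.5 range. Without E18.5 replicates 2 and 5 no gene of these 4 lists passed edgeR's test, with 5 erythroid, 3 dura, 4 neural and 4 muscle genes lower at an unadjusted p under 0.05. The chondrocyte list summed higher at E18.5 (1803 to 2539 CPM) than at E16.5 (1360 to 1675 CPM) in every library, with 1 of 18 genes raised, Col11a1, and 1 lowered, Col2a1. Of its members 11 of 18 were below 0 (median log2 fold change -0.33), and Col11a1, which also stands in the list of fibrous matrix, made up most of the sum. Cartilage Col2a1 had 33.0, 103, 73.1, 35.4 and 78.1 CPM at E16.5 and 18, 6.16, 11.1, 6.87 and 20.5 CPM at E18.5 (log2 fold change -2.38 ± 0.59, adjusted p = 0.00752, and 0.145 without replicates 2 and 5), while Acan had 38.9 to 52.3 CPM and 30.9 to 80.7 CPM. No osteoclast or macrophage gene passed edgeR's test, of 15 and 18 tested, with 3 and 0 at an unadjusted p under 0.05 and none called by DESeq2 or limma-voom. The defining neuronal marker Tubb3 was at or below 13.7 CPM in all libraries, and 0 in E18.5 replicate 5. Of 7 Schwann cell and nerve genes 1 was below 0 and the median log2 fold change was 0.63. The part of these tissues in the changes described above was not tested.

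By size, the 15 largest rises without overlap, among genes with a mean of at least 5 CPM in the higher age, were Mcpt4, Cpeb1, Pdzrn4, Fabp4, Chodl, Traf1, Irgm2, Prmt8, Sh3gl2, Abi3bp, Bbof1, Podn, Mill2, Socs2 and Ssc5d, with log2 fold changes of 1.65 to 4.31. Of these, Mcpt4, Pdzrn4, Fabp4, Traf1, Abi3bp, Podn and Socs2 also passed without replicates 2 and 5. Pdzrn4, a ring finger protein with PDZ domains (ENSMUSG00000036218.16, chromosome 15, 92396881 to 92771819), had 1.56, 2.75, 1.94, 1.14 and 0.287 CPM at E16.5 and 8.09, 5.78, 10.2, 8.99 and 4.38 CPM at E18.5. Its adjusted p was 4.66e-07, and 2.69e-07 without both libraries. The 15 largest falls, with log2 fold changes of -4.81 to -1.79, included Reln, Col2a1, Hist1h3e, Arnt2, Crmp1, Hist2h2ac, Gap43, Aif1l, Plekha6, Nnat, Hist1h1a, Hist1h2bl, Hist1h2bg and Scrn1. These include 5 histone genes and the neuronal genes Reln, Crmp1 and Gap43. Without replicates 2 and 5 none of the 15 passed edgeR's test, although all 15 had an unadjusted p under 0.05. The 15 were picked by size and lack of overlap in libraries that stayed in that fit, which favours such p-values. Reln had 77.8 CPM in E16.5 replicate 2 and 3.45 to 7.65 CPM in the other 4 E16.5 libraries, against 0 to 1.47 CPM at E18.5.

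The frontal SM of the same embryos was tested over the same ages to see which changes were shared across the front and the mesenchyme beside it. In the SM, 219 genes rose (1.11%) and 242 fell (1.22%), but 1319 and 1421 in a fit of the SM libraries alone, so the shares below hold for the fit of all libraries. Of the genes that rose in the OF, 95 also rose in the SM, which is 21.9% of the OF list and 43.4% of the SM list. Of those that fell, 116 also fell in the SM (27.3% and 47.9%), and 0 genes passed in opposite directions. By direction alone, whether or not they passed in the SM, more genes were shared. Of the genes that rose in the OF, 93.3% had a log2 fold change above 0 in the SM, against 49.5% of all genes. Of those that fell, 98.1% also changed downward in the SM, and 8 were above 0 there. The regions share embryos but not libraries, so they are not independent of each other. Cell cycle genes fell there as well, 23 of 40 with a median log2 fold change of -0.79. Tnn rose from 52.0 to 124 CPM to 171 to 240 CPM in the SM (1.51, adjusted p = 8.14e-07), Fndc1 rose by 1.69 (adjusted p = 1.49e-07) and Socs2 by 3.16 (adjusted p = 1.14e-18) on the log2 scale.

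The difference between the age changes of OF and SM passed the test for 1 gene of 19768 (0.00506%), while 684 had an unadjusted p under 0.05 and DESeq2 called 5. That gene was Capn6, a calpain without protease activity that binds microtubules (ENSMUSG00000067276.5, chromosome X, 143802231 to 143827414). In the OF it had 255, 153, 115, 177 and 120 CPM at E16.5 and 396, 409, 389, 286 and 509 CPM at E18.5. In the SM it had 132, 56.3, 50.1, 89.8 and 74.6 CPM at E16.5 and 502, 649, 698, 625 and 536 CPM at E18.5. It rose without overlap in both regions, by 1.28 ± 0.19 in the OF and 2.90 ± 0.20 in the SM on the log2 scale. The OF lay above the SM in 5 of 5 embryos at E16.5 and below it in 5 of 5 at E18.5 (difference -1.62 ± 0.27, adjusted p = 0.000863, 0.000591 without replicates 2 and 5, and 0.0829 in a fit of the 20 frontal libraries alone).

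The age change of the frontal OF was also set against the mean of the 5 other OFs (sagittal parietal, both lambdoid, both coronal). No litter gave both frontal libraries and sagittal or lambdoid ones, and only some gave both frontal and coronal libraries. A difference between sutures therefore cannot be told apart from a difference between litters and their collection. Of 19768 genes, 670 differed upward (3.39%) and 543 downward (2.75%), but 10 and 12 without replicates 2 and 5, and 65 and 110 with the second coronal libraries in place of the first. Of 16 named differences, 7 no longer passed with those second libraries. Acta2, the smooth muscle actin of contractile cells, differed most among the named genes that held without replicates 2 and 5. It had 32.8, 28.2, 75.7, 40.5 and 108 CPM at E16.5 and 27.4, 19.2, 20.6, 23.8 and 14.2 CPM at E18.5 in the frontal OF, where all E18.5 libraries lay below (-1.43 ± 0.33, adjusted p = 0.00407, and 0.207 without replicates 2 and 5). In the frontal SM Acta2 was higher than in the OF, at 147 to 300 CPM at E16.5 and 115 to 227 CPM at E18.5. In both coronal OFs it rose, by 3.34 and 3.33 on the log2 scale, and in the sagittal and lambdoid OFs it changed by 0.31 to 0.62 without passing the test. The difference was -3.07 ± 0.37 (adjusted p = 1.8e-08), and -1.95 without the coronal suture. Of 13 pericyte and smooth muscle genes Acta2 was the 1 that fell in the frontal OF, where 2.15% of all genes fell. Of the 13, 8 were below 0 and the median log2 fold change was -0.15. Myh11, the myosin of smooth muscle, had 1.04 to 4.54 CPM at E16.5 and 0.469 to 7.74 CPM at E18.5. Myl9, a light chain of smooth muscle myosin, differed in the same direction (-2.55 ± 0.37, adjusted p = 4.54e-06, and 0.00455 without both libraries), as did Bmp5 (-2.30 ± 0.51, adjusted p = 0.00203, and 0.039). Abi3bp rose in the frontal OF and had log2 fold changes of -1.02 to 0.93 in the other OFs (difference 2.14 ± 0.32, adjusted p = 7.47e-06, and 0.00455). Tnn rose in all 6 OFs, by 0.77 to 1.52, and its difference was not past the test (0.36 ± 0.23, adjusted p = 0.398).

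In the sagittal parietal OF, the other midline front, 228 genes rose (1.15%) and 89 fell (0.450%) over the same ages, and 1244 and 902 in a fit of its own libraries. Of the genes that rose in the frontal OF 22 also rose there, 5.08% of the frontal and 9.65% of the sagittal list, and of those that fell 13 also fell there (3.06% and 14.6%). In the opposite direction, 1 gene that rose in the frontal OF fell there, and 6 that fell rose there. In the lambdoid parietal OF 126 genes rose and 69 fell. Of these, 43 (34.1%) and 16 (23.2%) changed the same way in the frontal OF. In the lambdoid interparietal OF 45 rose and 12 fell, 21 (46.7%) and 6 (50%) of them as in the frontal OF. In both lambdoid OFs 0 genes passed in the opposite direction. In the frontal OF of the coronal suture, where 2493 genes rose (12.6%) and 2331 fell (11.8%), 57 of the 433 genes that rose here also rose (13.2%) and 138 fell, and 40 of the 425 that fell also fell (9.41%) and 80 rose. The mitochondrial share of counts in those coronal libraries was 30.6% to 52.4% at E16.5 and 21.5% to 25.3% at E18.5, and its part in the result was not tested. Genes of bone matrix rose in the sagittal parietal OF in 9 of 24 cases with a median log2 fold change of 0.90, while in the frontal OF 0 of 24 rose by edgeR, and 2 by limma-voom as given above, with a median of 0.30. The difference between these counts was not tested.

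**Figure D5:**
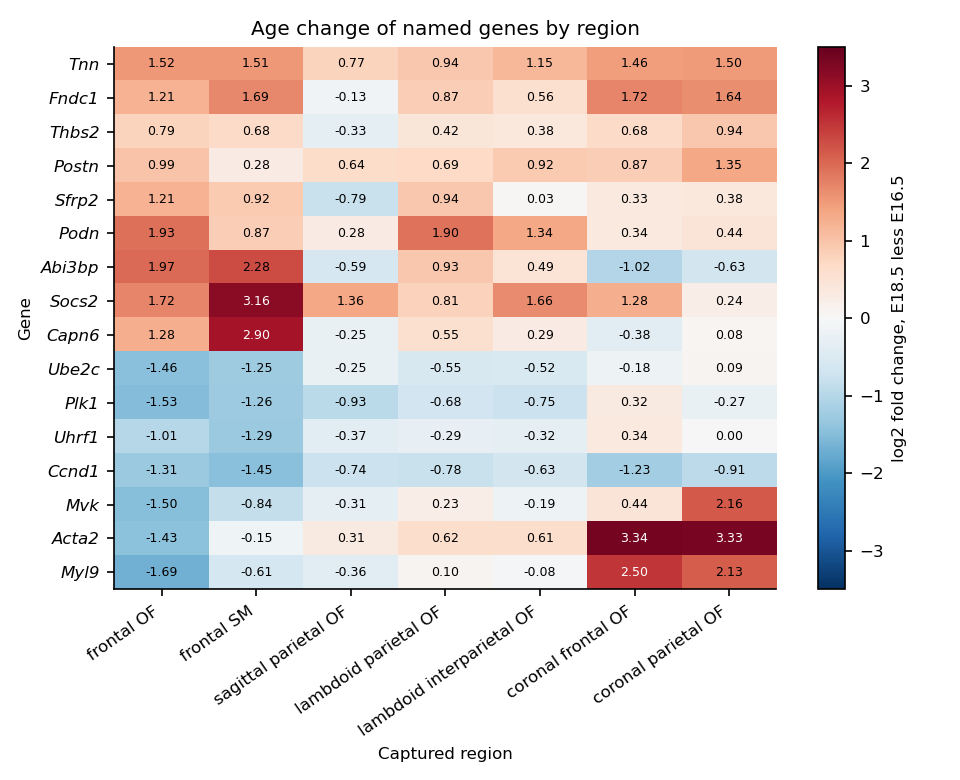
Log2 fold change (E18.5 against E16.5) of 16 genes in the frontal OF, the frontal SM and 5 OFs of other sutures, by colour, with each value written in its cell. Tnn is above 0 in all 7 regions, and Acta2 is below 0 in the frontal OF and SM and above 0 in the 5 other OFs.

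The genes that changed were also placed by their level in front and mesenchyme, measured in other libraries. In the sagittal and lambdoid sutures, both ages together, 26.2% of all genes were higher in the OFs than in the SM and 24.1% were lower. Of the 433 genes that rose with age in the frontal OF, 15.7% were higher in those OFs and 54% were lower. Of the 425 that fell, 69.6% were higher and 13.6% lower. Some genes were called with all libraries, without replicate 5 and without replicates 2 and 5 alike. Among these the shares were larger. Of the 43 that rose, 32 were lower in the OFs (74.4%), and of the 15 that fell, 12 were higher (80%). Tnn was an exception, 0.50 higher in the OFs on the log2 scale, while Sfrp2 (-2.88), Abi3bp (-3.00) and Fndc1 (-1.36) were lower. This description was added after the age changes were seen. The share of mesenchyme in each cut was not measured, and its part in the result was not tested.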

How the data were processed

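The authors cut out the regions with a laser, extracted RNA with the Picopure kit, amplified it with Ovation RNA-Seq V2 and made Nextera XT libraries. The authors trimmed reads with cutadapt, aligned them to mm10 with STAR 2.5.3a and counted read pairs on exons of GENCODE genes with featureCounts 1.6.4 without regard to strand, so a gene and an antisense partner cannot be told apart. The deposited values are raw counts per gene, 1 file per library, and 55394 of 55487 gene IDs matched a symbol. A deposited table of the authors' log2 ratios between groups was not used.

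Counts were read with Python 3.11.15 and fitted in R 4.3.3 with edgeR 4.0.16. Genes with at least 1 CPM in more than 10% of 100 first libraries (20 groups of a region, suture and age) were kept, scaled by TMM, and fitted by the quasi-likelihood test with 1 mean per group, two-sided, with Benjamini-Hochberg adjustment over 19768 genes within each comparison. Log2 fold changes carry the standard error of that fit. On simulated counts with 200 changed genes among 19768, the frontal OF comparison recovered 29 of 100 genes changed 2-fold and 56 of 100 changed 4-fold, with 2 false calls. The simulated counts held no litters and no library that stood apart, so these figures do not give the number of false calls in the data. Library measures were compared by exact permutation tests with scipy 1.17.1. Groups and replicate numbers came from the labels. The p-values rest on 1 estimate of each gene's spread, shared by all 20 groups, and not on the spread of the frontal OF libraries alone. Some embryos were littermates, and regions of 1 suture came from the same embryos.

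Named genes were the 15 largest rises and falls without overlap between the ages (mean of at least 5 CPM in the higher age, no gene models or haemoglobins), up to 4 called members of each of 43 gene lists with the members that define the list, the 8 largest differences per direction from the SM and from the other OFs, and 14 bone, growth and division genes. Some genes that met this rule are not reported here. Members and lists were chosen with earlier results of these data known. Replicate numbers did not pair the ages (correlations of the deviations of same-numbered libraries from -0.002 to 0.089), and OF and SM of 1 embryo correlated from -0.22 to 0.21, so no replicate block was in the model. Replicate pairs differed by far more than sampling noise. Alternatives were DESeq2 1.42.0, limma 3.58.1 (voom), other scalings and filters, fewer libraries, a replicate block, summed litters and each library left out. Promoters came from RefSeq tables of GRCm38.p6.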

Additional observations from a re-analysis of the deposited data

Results flagged for a closer look

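Some libraries lay far from the other 4 of their age, by the gap to the nearest library as a share of the range, a test that chance passes in about 1 of 20 groups. E18.5 replicate 5 had 65.0% of its counts in its top 100 genes, and summed levels of 3390 CPM for BMP and TGF-beta genes, 3280 CPM for cell cycle genes and 6170 CPM for suture mesenchyme genes, each above the other E18.5 libraries, and 202 CPM for osteoclast genes, below them. E18.5 replicate 1 had 0.0899% haemoglobin counts, with 869 CPM for erythroid genes and 13.9 CPM for keratinocyte genes, above the other E18.5 libraries. E16.5 replicate 1 had 2370 CPM for matrix proteases and their inhibitors and 4220 CPM for suture mesenchyme genes, above the other E16.5 libraries.

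The age change differed from that of the frontal SM for Capn6 (difference -1.62 on the log2 scale). It differed from the mean of the other OFs for 1213 genes by edgeR's test of the difference. The 8 largest upward differences were those of Csf2rb2 (2.32), Abi3bp (2.14), Sh3gl2 (1.87), Bbof1 (1.68), Dhdh (1.65), Mipol1 (1.58), Abhd18 (1.55) and Gripap1 (1.48). For Sh3gl2, Bbof1, Dhdh, Mipol1, Abhd18 and Gripap1 the highest E18.5 library was replicate 5. The 8 largest downward differences were those of Reln (-4.14), Stra6 (-3.27), Acta2 (-3.07), Myl9 (-2.55), Plat (-2.46), Hist2h2ac (-2.45), Scube1 (-2.38) and Bmp5 (-2.30). Without E18.5 replicates 2 and 5, Abi3bp, Acta2, Myl9 and Bmp5 still passed, and the other 12 had adjusted p-values of 0.279 to 0.894. With the second coronal libraries in place of the first, 9 of these 16 differences still passed and 7 did not.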

How the results depend on the processing

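The counts of genes depended on the processing. Genes raised in the frontal OF (433 as reported) numbered 834 with DESeq2, 207 with limma-voom, 111 with total counts in place of TMM, 273 without the filter on low counts and 134 with the 10 frontal OF libraries alone, whether TMM was set on all libraries or on these. Genes lowered (425) numbered 714 with total counts, and 121 and 100 in those 2 fits of 10 libraries. Total counts moved the median log2 fold change of all genes from -0.005 to -0.183. With the replicate block, which the numbers do not justify as a pairing, 85 rose and 86 fell, and with counts summed per litter 38 rose and 20 fell. Leaving out 1 library at a time gave 111 to 620 raised and 136 to 645 lowered genes. The counts moved by more than 1.5 times without E18.5 replicate 5 (111 and 176), E18.5 replicate 2 (237 and 136), E16.5 replicate 3 (273 and 225) and E16.5 replicate 5 (257 and 218), and for lowered genes without E18.5 replicate 4 (645). Leaving out E18.5 replicates 2 and 5 together, chosen after seeing the data, left 47 and 19. The cause of these shifts was not tested.

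In the frontal SM (461 genes) total counts gave 698 and the 10 SM libraries alone 2740, and in the sagittal parietal OF (317) its own libraries gave 2146. The difference from the SM (1 gene, Capn6) gave 5 genes with DESeq2, 3 with the embryo as a replicate block, 0 with the libraries of the comparison alone, where the adjusted p of Capn6 was 0.0829, and 1 to 2 with 1 library left out. The difference from the other OFs (1213 genes) gave 730 with limma-voom, 787 without the filter, 175 with the second coronal libraries, 237 to 1654 with 1 library left out and 22 without replicates 2 and 5. With total counts, 98 of these differences were upward and 1155 downward, against 670 and 543.

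Of 152 values of named genes, 60 kept their direction and their side of the threshold without replicates 2 and 5, 87 kept their direction but no longer passed, and 5 changed sign. Signs turned for 8 genes. Ibsp was 0.05 with DESeq2 and with median-ratio factors, 0.0064 with TMM on 10 libraries, 0.11 per litter, 0.0035 without haemoglobin and mitochondrial genes, and -0.33 to 0.18 with 1 library left out. H19 was 0.02 with DESeq2 and with median-ratio factors, 0.17 without replicates 2 and 5, 0.11 in a fit of frontal OF libraries without replicate 5, and -0.11 to 0.1 with 1 library left out. Without replicates 2 and 5 Ihh was 0.00088 and Inhba -0.15. Kit was 0.33 without replicates 2 and 5, 0.16 in a fit of frontal OF libraries without replicate 5, and -0.37 to 0.15 with 1 library left out. Myh11 was -0.0054 with limma-voom, -0.05 without replicates 2 and 5, and -0.36 to 0.55 with 1 library left out. Mki67 was 0.06 per litter and Igf2 -0.0087 with total counts. In the simulated counts, which held no library that stood apart, most 2-fold changes passed unseen at this number of libraries.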

Other observations

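Genes outside the lists also changed with all libraries, without E18.5 replicate 5 and without replicates 2 and 5, and those given here were chosen after their values were seen. Malat1, an abundant nuclear long noncoding RNA, had 4160, 5090, 4760, 5100 and 4010 CPM at E16.5 and 6950, 10800, 7670, 8030 and 9880 CPM at E18.5, without overlap (log2 fold change 0.91 ± 0.13, adjusted p = 1.8e-06, and 0.00384 without both libraries). Rbpj, the DNA-binding partner of activated Notch, had 71.1 to 93.8 CPM at E16.5 and 133, 150, 134, 140 and 99.7 CPM at E18.5 (0.67 ± 0.13, adjusted p = 0.000394, and 0.00176), while 0 of the 15 tested members of the Notch list passed edgeR's test (4 at an unadjusted p under 0.05, and Notch1 called lower by DESeq2 at an adjusted p of 0.0404). Mbnl2, a splicing regulator, rose from 295 to 388 CPM to 452 to 1130 CPM (0.99 ± 0.13, adjusted p = 4.66e-07, and 0.0233). Adam33, a metalloproteinase of mesenchymal cells, rose from 40.5 to 82.0 CPM to 128 to 216 CPM (1.33 ± 0.26, adjusted p = 0.000588, and 0.0338). Smoc2, a secreted calcium-binding matrix protein, rose from 28.8 to 36.4 CPM to 49.9 to 76.1 CPM (0.94 ± 0.22, adjusted p = 0.00484, and 0.0255).

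Among the falls of this kind, Cs, citrate synthase, had 141, 103, 158, 142 and 174 CPM at E16.5 and 85.0, 53.5, 79.6, 109 and 53.2 CPM at E18.5 (-0.92 ± 0.15, adjusted p = 3.72e-05, and 0.047 without both libraries). Cbx5, a heterochromatin protein, had 314 to 484 CPM and 234 to 297 CPM without overlap (-0.63 ± 0.12, adjusted p = 0.000511, and 0.047). Cfl1, which severs actin filaments, had 109 to 126 CPM and 52.0 to 81.4 CPM without overlap (-0.76 ± 0.15, adjusted p = 0.000588, and 0.0253). Psat1, an enzyme of serine synthesis, had 83.0 to 201 CPM and 43.8 to 129 CPM, and replicate 5 was the highest E18.5 library (-0.90 ± 0.22, adjusted p = 0.0063, and 0.0253). Sox11, a transcription factor of embryonic progenitors, had 58.9, 95.4, 70.1, 49.1 and 81.1 CPM at E16.5 and 35.5, 29.9, 36.1, 29.4 and 75.5 CPM at E18.5, where only replicate 5 reached the E16.5 range (-0.79 ± 0.22, adjusted p = 0.025, and 0.0303). Racgap1 and Cdca8, both of cell division, fell by 0.73 and 0.87 on the log2 scale (adjusted p = 0.00376 and 0.0111).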
